A study of Canis lupus familiaris with 8 samples.

Results

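Messenger RNA under chronic stress was compared in dogs in 4 matched pairs of sequencing libraries, from the pituitary and the adrenal cortex of the Beagle and of the Chinese Field Dog (CFD). The genes described here are those whose stress ratio had the same direction in all 4 pairs, or opposite directions in the pituitary and the adrenal cortex. The 4 stressed libraries were set against the 4 unexposed libraries of the same breed and gland, which is all 8 libraries of the series. Each stressed library came from adult dogs labelled as exposed to chronic stress, and each unexposed library from adult dogs labelled "non-disposal", read here as not exposed. There was 1 library for each combination of breed, gland and exposure, and the labels say neither whether a library holds 1 dog or a pool, nor whether both glands came from the same dogs. The kind and length of the stress were not given in the sources used here, and the extraction note speaks of spleen while the tissue labels give pituitary and adrenal cortex.

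The pituitary and the adrenal cortex are successive steps of the hormonal stress axis. Corticotroph cells of the pituitary cut the POMC protein into the hormone ACTH, which acts through its receptor MC2R on the adrenal cortex and drives cortisol synthesis, with STAR carrying cholesterol into the mitochondrion and CYP11A1 and CYP17A1 among the enzymes that follow. Cortisol then acts on nearly all cells, the pituitary included, through the glucocorticoid receptor NR3C1, whose known target genes include FKBP5, TSC22D3 and PER1.

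Marker genes were in accord with the tissue labels. STAR stood between 5079 and 7984 FPKM (a level corrected for gene length and sequencing depth) in the adrenal cortex and between 6.56 and 23.1 FPKM in the pituitary, and POMC between 10147 and 30314 FPKM in the pituitary and between 3.0 and 6.29 FPKM in the adrenal cortex. MC2R had 88.9 to 98.1 FPKM in the adrenal cortex and was listed at 0 in all 4 pituitaries. Adrenal medulla genes were present in all adrenal cortex libraries, with the noradrenaline-forming enzyme DBH between 239 and 758 FPKM. Recovered reads per library ranged from 14327357 to 18712032.

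The stressed CFD pituitary stood apart. SLC17A7, the vesicular glutamate transporter of forebrain neurons, had 203 FPKM there and at most 0.715 FPKM in the other 7 libraries. The summed level of 10 forebrain neuron markers was 1777 FPKM in that library against 135 FPKM in the unexposed CFD pituitary, with NEUROD2, NEUROD6 and TBR1 at 0 reads in the unexposed library and none at 0 in the stressed library. The SD of the log2 stress ratio across genes was 0.547 in the CFD pituitary pair, 0.271 in the Beagle pituitary pair, 0.320 in the Beagle adrenal cortex pair and 0.288 in the CFD adrenal cortex pair. Counts of list members with 1 pattern over all 4 pairs are therefore also given over the other 3 pairs, an alternative chosen after the data were seen. Such counts can only stay or rise when a pair is left out. Over these 3 pairs 16.7% of all genes tested were higher, 15% lower, and 10.5% lower in the pituitary with both adrenal cortices higher.

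The unexposed Beagle pituitary differed from the other pituitaries in genes of the airway lining. Together, 4 such markers had 8.72 against 90.3 FPKM in the Beagle pituitary, 2.09 against 6.13 in the CFD pituitary and at most 0.506 FPKM in any adrenal cortex library. SCGB1A1, a secretory protein of airway club cells, had 55.0 FPKM in the unexposed Beagle pituitary and at most 5.47 FPKM in the other 7 libraries. That library is the partner in every ratio of the Beagle pituitary, and the part of such tissue in those ratios was not tested. Over the 3 pairs without the Beagle pituitary, likewise chosen after the data were seen, 10.4% of all genes tested were higher, 10.7% lower, and 16.8% lower in the pituitary with both adrenal cortices higher.

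Across the 11757 genes tested, few followed the same direction in all pairs by more than a small amount. A ratio is the difference of log2(FPKM + 1), stressed minus unexposed, so that it understates changes of low genes, and its median over all genes was between -0.041 and 0.013 in the 4 pairs. Without a limit on size, 731 genes (6.22% of those tested) were higher in all 4 stressed libraries and 768 (6.53%) lower in all 4. The glands went in opposite directions for 634 genes (5.39%) that were higher in both stressed pituitaries and lower in both stressed adrenal cortices, and for 743 (6.32%) with the reverse. For comparison, 1459 genes (12.4%) separated the breeds in the same manner, against 1499 (12.7%) with 1 direction throughout and 1377 (11.7%) that separated the glands. The most frequent class was that of 2232 genes (19.0%) in which the CFD pituitary pair alone went against the other 3.

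When at least 1.5-fold was asked of every pair, 6 genes remained in 1 direction, 2 higher (0.0170%) and 4 lower (0.0340%), and 2 genes (0.0170%) were higher in both stressed pituitaries and lower in both stressed adrenal cortices, with 0 (0%) in the reverse. At that size 3 genes separated the breeds and 7 set the CFD pituitary pair against the rest. At 1.2-fold the counts were 26 higher (0.221%), 21 lower (0.179%), 32 higher in the pituitary and lower in the adrenal cortex (0.272%) and 4 in the reverse (0.0340%). Without the CFD pituitary pair, 14 genes kept 1 direction at 1.5-fold in the other 3 pairs, 2 higher and 12 lower. The 6 genes above are among them by definition, since a gene past the limit in 4 pairs passes it in any 3.

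**Figure D1:**
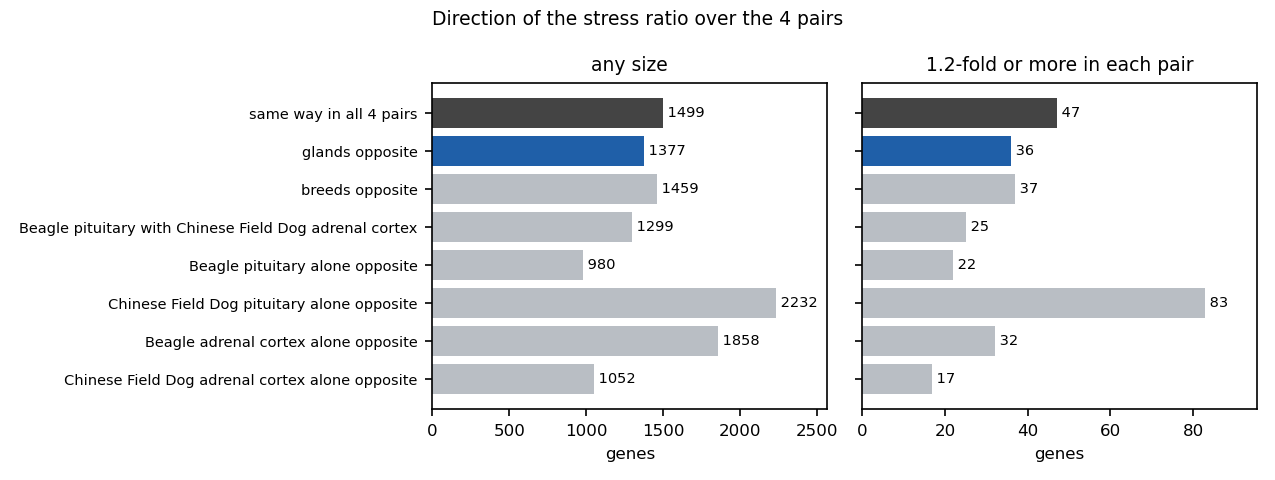
Number of genes (horizontal axes) by the direction of the stress ratio in the 4 pairs, at any size (left) and at 1.2-fold or more in each pair (right), among 11757 genes. The 1499 genes with 1 direction and the 1377 with opposite directions in the glands lie close to the 1459 that separate the breeds, and the CFD pituitary pair alone against the rest holds the longest bar in both panels.

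Correlations of the stress ratio between pairs, across 11757 genes that are not independent replicates, were weak. They were -0.03 between the pituitaries of the breeds, 0.14 between the adrenal cortices of the breeds, 0.14 between the glands of the Beagle and -0.08 between the glands of the CFD. Across both gland and breed, they were -0.27 between the CFD pituitary and the Beagle adrenal cortex and 0.16 between the Beagle pituitary and the CFD adrenal cortex. No library is shared between pairs, while all 8 share the authors' normalization.

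The limma fit of the shared stress effect over the 4 pairs called 0 of 11757 genes (0%) at an adjusted p of 0.05. At an unadjusted threshold of 0.05 it held 480 genes, edgeR on recovered reads called 0 with 465 at the unadjusted threshold, and DESeq2 called 20 (0.170%), 15 of them higher. The gland difference is the stress effect in the pituitary minus that in the adrenal cortex. Its fit also called 0 with limma (0%), with 456 at the unadjusted threshold, and 0 with edgeR, with 527. DESeq2 called 20 (0.170%), all 20 with the higher stress effect in the pituitary. These p-values capture no more than the variation among the 4 pairs, since nothing shows that the libraries are separate animals, and an exact sign-flip test over 4 pairs cannot go below 0.13 for a single value.

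Of the 35 gene lists examined, the genes encoded by mitochondrial DNA had the highest share of members in 1 direction throughout. They make core subunits of the respiratory chain and of the ATP synthase. Of 13 such genes with a symbol, 12 were higher in all 4 stressed libraries. The median of the log2 ratios of the 13 was 0.54 in the Beagle pituitary, 0.89 in the CFD pituitary, 0.52 in the Beagle adrenal cortex and 0.67 in the CFD adrenal cortex. Over all genes tested, 6.22% were higher in all 4 and the median of the mean ratio over the pairs was 0.01, against 0.61 for the 13. Counts were 12 of 13 also without the CFD pituitary pair (16.7% of all genes tested), and 12 of 13 without the Beagle pituitary pair (10.4%).

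All reads assigned to mitochondrial genes made up 5.41% of the stressed and 3.96% of the unexposed Beagle pituitary library, and 7.66% of the stressed and 4.55% of the unexposed CFD pituitary library. In the adrenal cortex, a gland rich in mitochondria, they made up 13.9% of the stressed and 10.4% of the unexposed Beagle library, and 14.5% of the stressed and 10.5% of the unexposed CFD library. The share was thus higher in the stressed library of each pair and higher in the adrenal cortex than in the pituitary at either exposure. Its log2 ratio averaged 0.52 ± 0.15 (SD, n = 4 pairs). The two-sided exact sign-flip permutation test gave p = 0.13, the smallest p that 4 pairs allow. That test must give this p whenever all 4 ratios have 1 sign, so it adds nothing to their shared direction. This share needs no scaling between libraries.

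MT-ND3, a subunit of complex I (ENSCAFG00000022732, CanFam3.1 mitochondrial genome, 9496 to 9910), ranked first among the named genes higher in all pairs, by the ratio in the pair where a gene moved least. It stood at 2842 against 1691 FPKM in the stressed and unexposed Beagle pituitary, 4821 against 2653 in the CFD pituitary, 13780 against 8234 in the Beagle adrenal cortex and 17089 against 9361 in the CFD adrenal cortex. Its log2 ratios lay between 0.74 and 0.87 in the 4 pairs, with a mean of 0.81 (SE 0.08, limma adjusted p = 0.541, DESeq2 adjusted p = 4.23e-13), so that each stressed library exceeded its own partner by nearly the same factor although the levels of the glands did not overlap.

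MT-ND1 (2747 to 3842 of the same genome), also of complex I, was the other gene above 1.5-fold in all pairs. It had 1332 against 754 FPKM in the Beagle pituitary, 3394 against 933 in the CFD pituitary, 8277 against 5367 in the Beagle adrenal cortex and 8375 against 4761 in the CFD adrenal cortex. The CFD pituitary pair showed the widest gap for this gene, a log2 ratio of 1.86 against 0.63 to 0.82 in the other pairs, and the same pair was highest for MT-ND2, MT-ND4 and MT-ND4L.

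The ATP synthase subunits MT-ATP6 and MT-ATP8 and the cytochrome oxidase subunit COX3 share 1 annotated locus (7803 to 9427), so that reads could be split between them in ways not given. Their mean log2 ratios were 0.61, 0.61 and 0.59, each with an SE of 0.08 or 0.09 and a limma adjusted p of 0.574. COX2 averaged 0.60 and COX1 0.56. MT-ND6, read from the opposite strand and overlapping the locus of ND5 (11778 to 14178), was the exception among the 13 genes with a symbol. It had 614 against 483 FPKM in the Beagle pituitary, 877 against 473 in the CFD pituitary, 1565 against 1304 in the Beagle adrenal cortex and 1196 against 1294 in the CFD adrenal cortex, where its counting interval ran from -0.17 to -0.07 on the log2 scale. ND5 was nearly level in that pair as well, at 1203 against 1171 FPKM. The unnamed mitochondrial genes ENSCAFG00000022709 (70 to 1023) and ENSCAFG00000022711 (1091 to 2670) also broke the pattern. Their log2 ratios were -0.31 and -0.06 in the Beagle adrenal cortex, and between 0.47 and 1.9 in the other pairs. Whether the counting used strand, and how reads matching nuclear copies of mitochondrial sequence were placed, was not given in the sources used here.

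DESeq2 called 11 of the 13 mitochondrial genes, which is most of its 15 calls of higher genes, while limma and edgeR called 0 of them. The 13 genes are not independent members. All 13 lie on the mitochondrial genome and enter the same mitochondrial share of reads, which was higher in each stressed library. MT-ATP6, MT-ATP8 and COX3 also share an annotated locus. The 11 calls are therefore not 11 separate results.

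**Figure D2:**
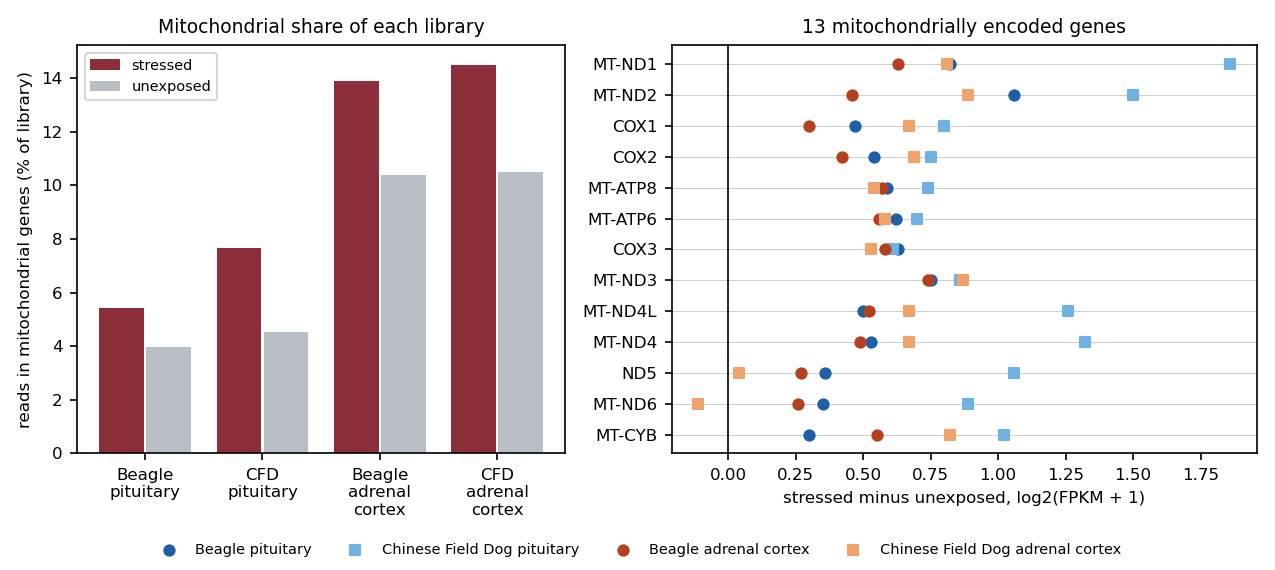
Left, percent of all recovered reads that fell on mitochondrial genes in each stressed and unexposed library, 1 library a bar. Right, stress ratios of the 13 mitochondrially encoded genes in the 4 pairs, in genome order, where MT-ND6 in the CFD adrenal cortex (-0.11) is the only point below 0.

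Respiratory chain genes of the nuclear genome were tested beside them. Of 40, 5 were higher in all 4 stressed libraries (6.22% of all genes tested) and 0 lower (6.53%). Over the 3 pairs without the CFD pituitary 6 were higher (16.7%), and over those without the Beagle pituitary 10 were (10.4%). In both stressed pituitaries 23 of the 40 were higher, where 22.1% of all genes tested were. Their median log2 ratios were 0.05 in the Beagle pituitary, 0.29 in the CFD pituitary, -0.08 in the Beagle adrenal cortex and 0.36 in the CFD adrenal cortex, each below the median of the mitochondrially encoded genes in the same pair. SDHB, a subunit of complex II, had 109 against 89.1 FPKM in the Beagle pituitary, 124 against 109 in the CFD pituitary, 229 against 204 in the Beagle adrenal cortex and 359 against 218 in the CFD adrenal cortex.

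Genes induced by interferon, the alarm signal of virus infection, were higher in the stressed pituitaries and mixed in the adrenal cortices. Of 30 tested, 27 were higher in both stressed pituitaries (22.1% of all genes tested) and 0 lower (27.1%). In both stressed adrenal cortices 14 were higher (27.2% of all genes tested) and 3 lower (24.5%). In all 4 pairs 12 of the 30 were higher, against 6.22% of all genes, and 0 were lower, against 6.53%. Their median log2 ratios were 0.63 in the Beagle pituitary, 0.47 in the CFD pituitary, 0.18 in the Beagle adrenal cortex and 0.09 in the CFD adrenal cortex, and over the pairs 0.32 against 0.01 for all genes. limma and edgeR called 0 of the 30 and DESeq2 called 1, XAF1. The count in all remaining pairs was 13 without the CFD pituitary pair (16.7% of all genes tested) and 13 without the Beagle pituitary pair (10.4%). It was 22 without the CFD adrenal cortex pair. Of all genes tested, 731 were higher in all 4 pairs and a further 433 in all but the CFD adrenal cortex.

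XAF1, an interferon-inducible binding partner of the apoptosis inhibitor XIAP (ENSCAFG00000031602, chromosome 5, 30625674 to 30636121), had 9.64 against 5.14 FPKM in the stressed and unexposed Beagle pituitary, 16.9 against 11.0 in the CFD pituitary, 3.42 against 2.06 in the Beagle adrenal cortex and 6.49 against 3.74 in the CFD adrenal cortex. All 4 ratios lay between 0.53 and 0.79, with a mean of 0.64 (SE 0.09, limma adjusted p = 0.574, DESeq2 adjusted p = 0.0292). IRF7, the transcription factor that amplifies interferon production, had 15.1 against 8.07 FPKM and 23.7 against 13.0 FPKM in the Beagle and CFD pituitary pairs, and 10.2 against 7.19 and 15.3 against 12.2 FPKM in the adrenal cortex pairs of the same breeds. IFIT1, which binds foreign RNA, was likewise higher in all 4, with log2 ratios of 1.01 and 1.32 in the pituitary and 0.25 and 0.38 in the adrenal cortex.

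ISG15, a ubiquitin-like modifier and among the most strongly induced genes of this response, did not follow them into the adrenal cortex. It had 56.2 against 15.5 FPKM in the Beagle pituitary and 102 against 36.8 in the CFD pituitary, but 68.9 against 81.1 in the Beagle adrenal cortex and 98.2 against 91.4 in the CFD adrenal cortex. Its gland difference of 1.68 (SE 0.24) had a limma adjusted p of 0.965 and a DESeq2 adjusted p of 0.000507. The antiviral GTPase MX1 was higher in the stressed pituitaries (log2 ratios 0.79 and 0.48) and lower in the stressed adrenal cortices (-0.02 and -0.48).

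CXCL10, a chemokine that attracts T cells, had 5.89 against 2.08 FPKM in the Beagle pituitary, 105 against 9.71 in the CFD pituitary, 23.8 against 18.1 in the Beagle adrenal cortex and 53.2 against 38.2 in the CFD adrenal cortex. SAMD9L, another interferon-inducible gene, had mean log2 0.61 (SE 0.12, limma adjusted p = 0.965, DESeq2 adjusted p = 0.0329). The summed level of 12 T and natural killer cell markers was 9.65 against 11.8 FPKM in the Beagle pituitary, 239 against 51.9 in the CFD pituitary, 44.4 against 44.6 in the Beagle adrenal cortex and 111 against 87.5 in the CFD adrenal cortex. It was thus higher in both stressed CFD libraries and not in the stressed Beagle libraries. The part of such cells in these values was not tested, and in bulk tissue more cells of a type and more RNA per cell cannot be told apart.

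The complement genes C1QA, C1QB and C1QC, made by macrophages, were also higher in all 4 stressed libraries. C1QA had 48.5 against 33.6 FPKM in the Beagle pituitary, 113 against 90.7 in the CFD pituitary, 149 against 125 in the Beagle adrenal cortex and 238 against 213 in the CFD adrenal cortex. Of 11 macrophage markers tested these 3 were the ones higher in all pairs (6.22% of all genes tested). Without the CFD pituitary pair 4 were higher (16.7%), and without the Beagle pituitary pair 3 were (10.4%). CD163, a scavenger receptor of macrophages, had ratios of -0.46, -0.97, 0.06 and -0.46 in the same order of pairs.

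CAP2, an actin-binding protein, had log2 ratios of 0.36 and 1.82 in the Beagle and CFD pituitary and 0.38 and 0.60 in the adrenal cortex. VTI1B, a SNARE protein of vesicle transport, lay between 0.46 and 0.54 in all pairs, and whether its short annotated locus (chromosome 29, 19153616 to 19154314) shares reads with another copy was not tested. HTRA1, a secreted serine protease that DESeq2 also called (adjusted p = 0.0104), had 62.0 against 51.9 FPKM in the Beagle pituitary, 92.7 against 62.6 in the CFD pituitary, 95.6 against 58.3 in the Beagle adrenal cortex and 95.2 against 63.2 in the CFD adrenal cortex.

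**Figure D3:**
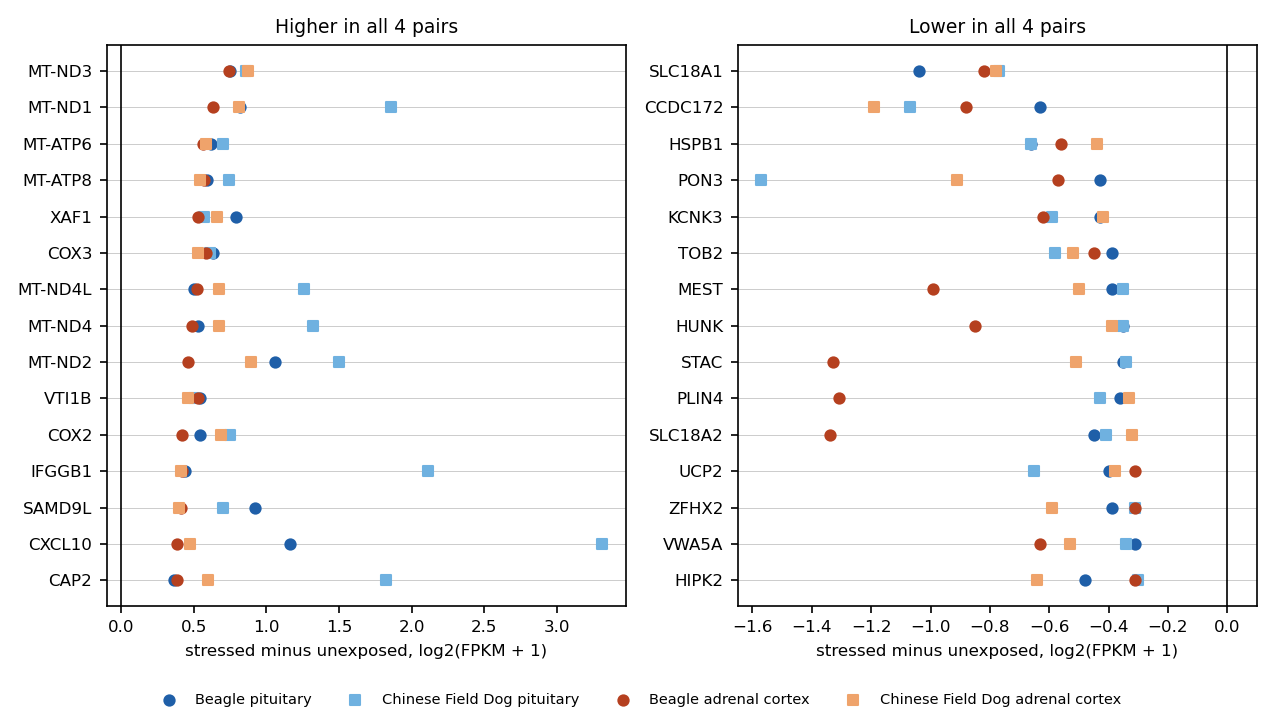
Stress ratios, as the difference of log2(FPKM + 1), of the 15 genes ranked first among those higher (left) and lower (right) in all 4 pairs, by the pair where each moved least. Points of MT-ND3 and SLC18A1 lie close together, while CXCL10 reaches 3.31 in the CFD pituitary pair and STAC, PLIN4 and SLC18A2 lie lowest in the Beagle adrenal cortex pair.

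Among genes lower in all stressed libraries, SLC18A1, the vesicular monoamine transporter of adrenal chromaffin cells (ENSCAFG00000010147, chromosome 25, 36881068 to 36904061), ranked first of those with a symbol. It had 1.67 against 4.49 FPKM in the stressed and unexposed Beagle pituitary, 0.700 against 1.89 in the CFD pituitary, 45.1 against 80.4 in the Beagle adrenal cortex and 25.3 against 44.1 in the CFD adrenal cortex. The pituitary values rest on 21 to 143 reads. Its mean log2 ratio was -0.85 (SE 0.09, limma adjusted p = 0.541, DESeq2 adjusted p = 0.000134), and every stressed library was below its partner by more than 1.5-fold. SLC18A2, the second transporter of this kind, was also lower in all 4, most in the Beagle adrenal cortex (11.4 against 30.3 FPKM) and between -0.45 and -0.32 on the log2 scale elsewhere.

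The summed level of 11 adrenal medulla markers was lower in the stressed library of all 4 pairs. It was 4765 against 6009 FPKM in the Beagle adrenal cortex and 3232 against 3513 in the CFD adrenal cortex, and 1333 against 1521 and 1543 against 1681 FPKM in the Beagle and CFD pituitary, where UCN was at 0 reads. DBH had 467 against 758 FPKM in the Beagle adrenal cortex and 239 against 331 in the CFD adrenal cortex. PNMT, which forms adrenaline, had 584 against 962 FPKM and 382 against 345 FPKM in the same pairs, so the markers did not go 1 way in the CFD. Their part in the result for SLC18A1 was not tested.

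CCDC172, a coiled-coil protein gene, and the unnamed genes ENSCAFG00000002237 and ENSCAFG00000001397 were the other 3 genes lower by more than 1.5-fold in all pairs. CCDC172 had 1.83 against 3.40 FPKM in the Beagle pituitary, 0.0839 against 1.28 in the CFD pituitary, 2.11 against 4.73 in the Beagle adrenal cortex and 0.161 against 1.65 in the CFD adrenal cortex, and the stressed CFD libraries held only 3 and 5 reads of it, with counting intervals from -6.26 to -2.30 in the pituitary and from -5.03 to -2.07 in the adrenal cortex on the log2 scale. ENSCAFG00000002237 (chromosome 1, 98050515 to 98051104) had log2 ratios of -2.89 and -2.35 in the Beagle pituitary and adrenal cortex and of -0.92 and -0.99 in those of the CFD. ENSCAFG00000001397 (chromosome 14, 5358884 to 5359726) lay between -1.37 and -0.69. All 6 genes at this size had every counting interval on 1 side of no difference, as did 83 of all genes in the higher direction (0.706%) and 82 in the lower (0.697%). The gene just above the limit was MT-ND1, at 0.63 in its least pair, and the gene just below it was MT-ATP6, at 0.56.

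KCNK3, a leak potassium channel that sets the resting potential of aldosterone-making cells, was lower in all 4. It had 6.81 against 9.51 FPKM in the Beagle pituitary, 6.57 against 10.4 in the CFD pituitary, 62.7 against 97.1 in the Beagle adrenal cortex and 64.8 against 86.8 in the CFD adrenal cortex, with a mean log2 ratio of -0.51 (SE 0.09, limma adjusted p = 0.953, DESeq2 adjusted p = 0.0412). TOB2, a restraint on cell division of the BTG and TOB family, lay between -0.58 and -0.39 in all pairs. PON3, a lactonase bound to lipoproteins, lay between -1.57 and -0.43, with the CFD lowest in both glands. MEST, an imprinted gene, and the mitochondrial uncoupling protein UCP2 were lower in all 4 by -0.56 and -0.44 on average. PLIN4, which coats lipid droplets, was lowest in the Beagle adrenal cortex (6.48 against 17.5 FPKM), where the summed level of 6 fat cell markers was 26.6 against 105 FPKM. In the CFD adrenal cortex that sum was 76.6 against 55.4 FPKM while PLIN4 was at 7.95 against 10.2.

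Heat-shock chaperones, which refold damaged proteins, were not higher in all 4 stressed libraries for any of 24 tested, and 5 were lower in all 4 (6.53% of all genes tested). These were HSPB1, HSPA1L, BAG3, HSF2 and HSPB8, the last with a ratio of -0.00 in the CFD pituitary. Median log2 ratios were -0.23 in the Beagle pituitary, 0.14 in the CFD pituitary, -0.37 in the Beagle adrenal cortex and -0.07 in the CFD adrenal cortex, and over the pairs -0.11 against 0.01 for all genes. Without the CFD pituitary pair, 13 of 24 were lower in the other 3 (15% of all genes tested), and without the Beagle pituitary pair 6 were (10.7%). limma and edgeR called 0 of the 24 and DESeq2 called 1, HSPB1.

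HSPB1, a small heat-shock protein that holds unfolded proteins (ENSCAFG00000013544, chromosome 6, 7487250 to 7490096), had 232 against 366 FPKM in the Beagle pituitary, 164 against 260 in the CFD pituitary, 526 against 776 in the Beagle adrenal cortex and 592 against 800 in the CFD adrenal cortex. Its mean log2 ratio was -0.58 (SE 0.09, limma adjusted p = 0.807, DESeq2 adjusted p = 4.12e-05). Every stressed library was below its partner, and within each gland both stressed levels were below both unexposed levels. HSPH1, a nucleotide exchange factor for the HSP70 chaperones, was lower in 3 stressed libraries and higher in the CFD pituitary, with 53.7 against 80.0 FPKM in the Beagle pituitary, 97.2 against 55.4 in the CFD pituitary, 34.8 against 98.6 in the Beagle adrenal cortex and 48.3 against 52.2 in the CFD adrenal cortex. DNAJB1, a co-chaperone of HSP70, had log2 ratios of -0.55, 0.19, -1.38 and -0.21 in that order.

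Known targets of the glucocorticoid receptor showed no common increase. Of 22 tested, 0 were higher in all 4 stressed libraries (6.22% of all genes tested) and 4 lower (6.53%), with median log2 ratios of -0.52 in the Beagle pituitary, -0.08 in the CFD pituitary, -0.12 in the Beagle adrenal cortex and -0.07 in the CFD adrenal cortex, and 0 calls by limma, edgeR and DESeq2, with 3 at the unadjusted limma threshold. Without the CFD pituitary pair 0 were higher (16.7% of all genes tested) and 6 lower (15%). Without the Beagle pituitary pair 4 were higher (10.4%) and 6 lower (10.7%). FKBP5, which restrains the receptor, had 53.6 against 80.3 FPKM in the Beagle pituitary, 37.6 against 39.8 in the CFD pituitary, 107 against 110 in the Beagle adrenal cortex and 141 against 149 in the CFD adrenal cortex. The widest gap was that of the Beagle pituitary. ANGPTL4, an inhibitor of lipoprotein lipase, had log2 ratios of -0.94 and -0.96 in the pituitary and -0.13 and -0.32 in the adrenal cortex, and TXNIP, a brake on glucose uptake, -0.52, -0.93, -0.12 and -0.51. TSC22D3 was level in the CFD pairs (0.03 and 0.05) and lower in the Beagle pairs (-0.52 and -0.47). NR3C1, the receptor, had 25.9 against 31.3 and 26.2 against 26.2 FPKM in the pituitary pairs, and 11.6 against 11.0 and 10.2 against 11.1 in the adrenal cortex pairs.

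Immediate-early genes, which respond to signals within a short time, were lower in all 4 for 4 of 25 tested, JUND, KLF10, DUSP4 and BTG2 (6.53% of all genes tested), and higher for 1, KLF6 (6.22%). Over the pairs without the CFD pituitary 11 were lower and 2 higher (15% and 16.7% of all genes tested). Without the Beagle pituitary pair 4 were lower and 3 higher (10.7% and 10.4%). JUND, a subunit of the AP-1 transcription factor, had 16.5 against 28.9 FPKM in the Beagle pituitary, 23.8 against 28.5 in the CFD pituitary, 48.7 against 101 in the Beagle adrenal cortex and 27.3 against 35.7 in the CFD adrenal cortex. The orphan receptors NR4A1 and NR4A2 and the kinase SIK1, all induced by cyclic AMP, were lower in 3 stressed libraries and higher in the stressed CFD pituitary. SIK1 had 8.34 against 30.6 FPKM in the Beagle pituitary, 12.1 against 10.4 in the CFD pituitary, 7.85 against 43.9 in the Beagle adrenal cortex and 5.58 against 9.72 in the CFD adrenal cortex. Genes of endoplasmic-reticulum stress were lower in all 4 for 5 of 24 tested (6.53% of all genes tested) and higher for 0 (6.22%). They were lower for 7 without the CFD pituitary pair (15%) and for 10 without the Beagle pituitary pair (10.7%). Among the 5 lower in all 4 was the calcium-binding chaperone CALR, with 377 against 420 and 336 against 492 FPKM in the pituitary pairs and 218 against 308 and 227 against 312 FPKM in the adrenal cortex pairs. limma called 0 of either list.

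**Figure D4:**
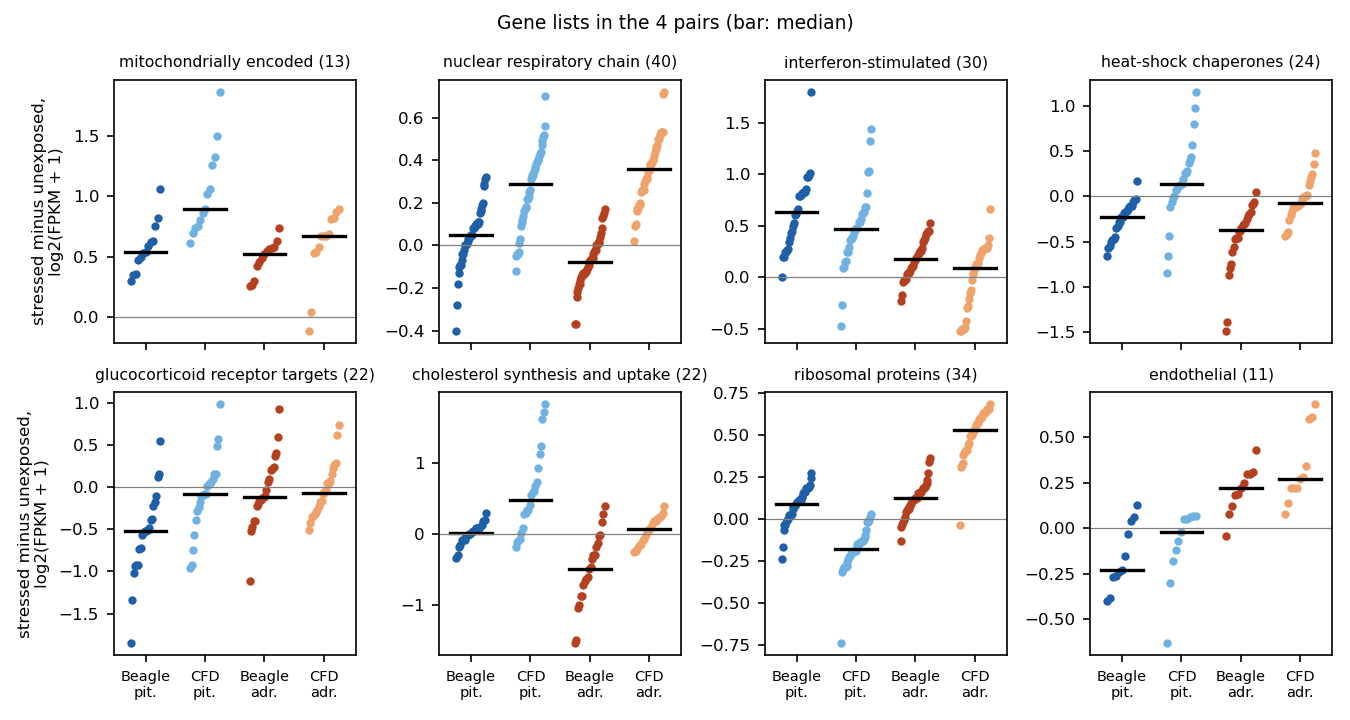
Stress ratios of the members of 8 gene lists in the 4 pairs (points sorted within a pair, black bars at the median, number of genes tested in brackets, vertical scale set per panel, pit. for pituitary and adr. for adrenal cortex). The mitochondrially encoded genes have medians from 0.52 to 0.89, the interferon genes are higher in the pituitary pairs, and the endothelial genes are higher in the adrenal cortex pairs. Ribosomal medians are 0.12 and 0.53 in the Beagle and CFD adrenal cortex, and 0.09 and -0.18 in the Beagle and CFD pituitary.

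The 8 genes named as higher in both stressed pituitaries and lower in both stressed adrenal cortices include several known from neurons and glia. GABRG1, a subunit of the GABA-A receptor (ENSCAFG00000001878, chromosome 13, 42200387 to 42276275), had 3.83 against 0.565 FPKM in the stressed and unexposed Beagle pituitary, 11.3 against 2.84 in the CFD pituitary, 8.19 against 14.8 in the Beagle adrenal cortex and 3.62 against 7.49 in the CFD adrenal cortex. Its log2 ratios were 1.63 and 1.68 in the pituitary and -0.79 and -0.88 in the adrenal cortex, so that the breeds were alike within each gland. The gland difference was 2.48 (SE 0.19, limma adjusted p = 0.338, DESeq2 adjusted p = 0.000297).

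TAGLN3, a calponin-family protein of neurons, was the other gene at 1.5-fold in all pairs. It had 29.2 against 11.8 FPKM in the Beagle pituitary, 112 against 17.5 in the CFD pituitary, 15.2 against 32.4 in the Beagle adrenal cortex and 8.63 against 14.3 in the CFD adrenal cortex, a gland difference of 2.78 (SE 0.47, limma adjusted p = 0.965, DESeq2 adjusted p = 3.16e-05). ADCYAP1R1, the receptor for the pituitary adenylate cyclase-activating peptide PACAP, had 28.8 against 19.1 FPKM in the Beagle pituitary, 53.7 against 32.3 in the CFD pituitary, 17.4 against 25.8 in the Beagle adrenal cortex and 7.44 against 13.4 in the CFD adrenal cortex. SOX10, the transcription factor of neural-crest glia, had 1.51 against 0.496 and 4.66 against 1.17 FPKM in the pituitary pairs and 2.78 against 4.72 and 1.88 against 2.91 FPKM in the adrenal cortex pairs. The other genes named by the same rule were TTYH1, LSAMP, CDH9 and CA10, with pituitary ratios between 0.49 and 3.91 and adrenal ratios between -1.03 and -0.46.

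Glial markers as a list moved with these genes in the pituitary pairs and the Beagle adrenal cortex, and little in the CFD adrenal cortex. The summed level of 9 glial markers was 74.2 against 37.7 FPKM in the Beagle pituitary, 588 against 124 in the CFD pituitary, 16.7 against 37.3 in the Beagle adrenal cortex and 17.0 against 18.7 in the CFD adrenal cortex, with MOBP at 0 reads in all adrenal cortex libraries. The myelin gene MBP carried the same pattern, with 38.0 against 21.3 and 271 against 73.3 FPKM in the pituitary pairs and 7.22 against 13.7 and 7.93 against 8.29 FPKM in the adrenal cortex pairs. The summed level of the forebrain neuron markers was 138 against 140 FPKM in the Beagle pituitary, 99.4 against 212 in the Beagle adrenal cortex and 71.2 against 91.1 in the CFD adrenal cortex, so it was level in the Beagle pituitary where GABRG1 and TAGLN3 were higher. NPY, a peptide of neurons and chromaffin cells, had 11.8 against 1.64 FPKM in the Beagle pituitary, 114 against 7.55 in the CFD pituitary, 35.2 against 266 in the Beagle adrenal cortex and 25.8 against 27.1 in the CFD adrenal cortex. Markers of the posterior lobe, 4 in number, summed to 119 against 46.6 FPKM in the Beagle pituitary and 36.1 against 104 in the CFD pituitary, so it did not go 1 way in the pituitary. The part of glial, posterior lobe and neural tissue in the libraries in these values was not tested. Without the CFD pituitary pair the gland difference was called for 22 genes by limma, and for GABRG1 it was 2.46 with an adjusted p of 0.00101. Without the Beagle pituitary pair, so with the stressed CFD pituitary as the lone library of its kind, 830 genes were called. In both cases the lone pituitary pair is assumed to vary like the adrenal cortex pairs.

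**Figure D5:**
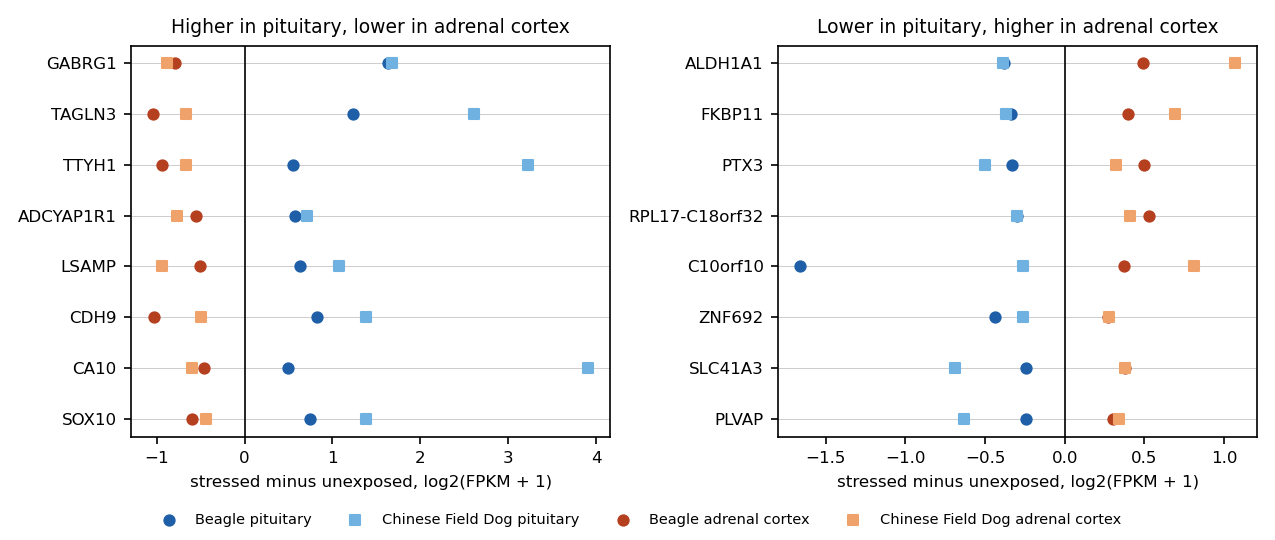
Stress ratios, as the difference of log2(FPKM + 1), of the 8 genes ranked first in each direction among those with opposite directions in the glands. GABRG1 has pituitary points at 1.63 and 1.68 and adrenal cortex points at -0.79 and -0.88, and the genes on the right have smaller ratios except C10orf10 in the Beagle pituitary.

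In the reverse direction, lower in the stressed pituitaries and higher in the stressed adrenal cortices, 4 genes reached 1.2-fold in every pair. ALDH1A1, an enzyme of retinoic acid synthesis (chromosome 1, 84940066 to 84994247), had 289 against 378 FPKM in the Beagle pituitary, 250 against 327 in the CFD pituitary, 83.0 against 59.0 in the Beagle adrenal cortex and 69.3 against 32.6 in the CFD adrenal cortex, a gland difference of -1.16 (SE 0.26, limma adjusted p = 0.965, DESeq2 adjusted p = 0.110). FKBP11, a folding enzyme of the endoplasmic reticulum, had 78.1 against 98.9 and 67.4 against 87.6 FPKM in the pituitary pairs and 133 against 101 and 156 against 96.4 FPKM in the adrenal cortex pairs. C10orf10 had 5.42 against 19.3 FPKM in the Beagle pituitary but 2.79 against 3.54 in the CFD pituitary, and 15.2 against 11.6 and 20.1 against 11.0 FPKM in the adrenal cortex pairs.

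Endothelial genes were among those of this direction. PLVAP, which forms the diaphragms of fenestrated capillaries, had 61.5 against 72.9 FPKM in the Beagle pituitary, 51.8 against 80.5 in the CFD pituitary, 87.3 against 70.5 in the Beagle adrenal cortex and 88.0 against 69.1 in the CFD adrenal cortex. Of 11 endothelial genes tested, PLVAP, PECAM1, CDH5 and ESAM were lower in both stressed pituitaries and higher in both stressed adrenal cortices (6.32% of all genes tested), 10 were higher in both stressed adrenal cortices (27.2% of all genes tested) and FLT1 was higher in all 4 libraries (6.22% of all genes tested). The reverse direction held 7 of the 11 without the CFD pituitary pair (10.5% of all genes tested) and 6 without the Beagle pituitary pair (16.8%). The summed endothelial level was 177 against 204 and 160 against 191 FPKM in the pituitary pairs, and 367 against 310 and 380 against 286 FPKM in the adrenal cortex pairs. Ribosomal protein genes were higher in both stressed adrenal cortices for 28 of 34 tested, against 27.2% of all genes, with a median log2 ratio of 0.53 in the CFD, and 7 of the 34 were lower in both stressed pituitaries as well (6.32% of all genes tested). In the Beagle the median log2 ratio was 0.09 in the pituitary and 0.12 in the adrenal cortex. Without the CFD pituitary pair 20 of the 34 were higher in the other 3 pairs (16.7% of all genes tested). In these pairs 8 were lower in the pituitary and higher in both adrenal cortices (10.5%). Without the Beagle pituitary pair 27 were lower in the pituitary and higher in both adrenal cortices (16.8%). In those pairs 1 was higher throughout (10.4%). RPS14 had 2229 against 2287 and 1819 against 1974 FPKM in the pituitary pairs, and 4105 against 3794 and 4162 against 2866 FPKM in the adrenal cortex pairs. limma called 0 members of both lists.

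Genes of cholesterol synthesis, which feeds steroid production, differed most from level in the CFD pituitary and the Beagle adrenal cortex. Median log2 ratios over 22 genes were 0.02 in the Beagle pituitary, 0.48 in the CFD pituitary, -0.49 in the Beagle adrenal cortex and 0.07 in the CFD adrenal cortex. SQLE, squalene epoxidase, had 13.0 against 10.5 FPKM in the Beagle pituitary, 33.0 against 9.33 in the CFD pituitary, 3.63 against 12.4 in the Beagle adrenal cortex and 4.14 against 4.72 in the CFD adrenal cortex. STAR had 5079 against 6288 FPKM in the Beagle adrenal cortex and 7984 against 5494 in the CFD adrenal cortex. Of 5 adrenal cortex cell genes tested, 2 were higher in both stressed adrenal cortices (27.2% of all genes tested) and 0 lower in both (24.5%).

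In the authors' deposited table of each pair, genes with a p-value up to 0.05 and a 2-fold or wider ratio were counted. They were 16 higher and 22 lower in the Beagle pituitary, 305 and 25 in the CFD pituitary, 17 and 48 in the Beagle adrenal cortex and 18 and 28 in the CFD adrenal cortex. In the authors' deposited tables together, 0 genes were so marked in 1 direction in all 4 pairs, and 2 were marked in 3 pairs, SNORD15 and NPB, each with at most 10 reads in any library.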

How the data were processed

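Messenger RNA was sequenced from 8 libraries prepared with the TruSeq kit, per the labels' protocols, and aligned with TopHat to CanFam3.1, per the submitters' processing notes. The TopHat version, the counting program and the annotation are not given in the sources used here. Each of the authors' deposited tables sets 2 libraries side by side over 24580 genes, with a scaled count and an FPKM value per library. The deposited scaled counts are a signal made of read counts and 1 factor per library, and 98.7% to 99.1% of values were whole within 0.02 after division by that factor. That factor lay near 1 in 2 stressed libraries, Beagle adrenal cortex and CFD pituitary, whose reads are less certain. The authors' p-value and FDR columns and the authors' log2 ratios enter only where their table is named. GH1 and RRBP1, listed at 0 after a failed estimate in the unexposed Beagle pituitary, were left out of the tests.

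Genes averaging 1 FPKM or more and 50 recovered reads or more in each gland were tested with limma 3.58.1 (R 4.3.3) on log2(FPKM + 1) with the pair as a block. The shared effect had 3 residual degrees of freedom and the gland difference 2, and Benjamini-Hochberg adjustment covered every gene tested. The design named this block, and pairing comes from breed and gland, since each group has 1 library. edgeR 4.0.16 and DESeq2 1.42.0 on recovered reads were alternatives, as were pseudocounts of 0.1 and 0.5, other filters and scalings, folds of 1.2 and 2, and leaving out each pair. Counting intervals are 95% Clopper-Pearson intervals on reads and cover counting error only, with 3 reads as the limit where none were seen. The tests were checked on simulated data.

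Genes named are, with a symbol used once, the 15 per direction with 1 sign in all pairs and the 8 per direction with opposite signs in the glands, ranked by the pair where each moved least, up to 4 members with the largest mean ratio in size per list, a set of label checks, and genes that meet a stated count. Other members of lists were named after their values were seen, such as those that show a list's pattern. Symbols used more than once were left out of the 35 lists. The lists and members were chosen with earlier results of these data known.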

Additional observations from a re-analysis of the deposited data

Results flagged for a closer look

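In 16 named genes both stressed pituitaries moved 1 way and both stressed adrenal cortices the other, which marks them for a closer look. The difference between the glands was tested, and limma called 0 of them over all 4 pairs. For genes higher in the pituitary, the stress effect in the pituitary minus that in the adrenal cortex, on the log2 scale, was 1.30 for ADCYAP1R1, 2.73 for CA10, 1.86 for CDH9, 2.48 for GABRG1, 1.58 for LSAMP, 1.59 for SOX10, 2.78 for TAGLN3 and 2.70 for TTYH1. For genes lower in the pituitary it was -1.16 for ALDH1A1, -1.55 for C10orf10, -0.90 for FKBP11, -0.76 for PLVAP, -0.83 for PTX3, -0.77 for RPL17-C18orf32, -0.85 for SLC41A3 and -0.62 for ZNF692. DESeq2 called GABRG1, TAGLN3, ADCYAP1R1 and CDH9. The values of glial, neural and endothelial markers that move with some of them stand in the report, and their part was not tested.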

How the results depend on the processing

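The limma count of 0 for the shared effect was also 0 under each of the pseudocounts, filters, scalings and the variance trend, with edgeR, with no replicate block (314 genes at the unadjusted threshold, 184 for the gland difference) and when each pair was left out, and DESeq2 called 20. For the gland difference DESeq2 called 20, leaving out a pair gave 0 to 830, and the other alternatives gave 0. The 6 genes with 1 direction at 1.5-fold became 47 at 1.2-fold, 0 at 2-fold, 165 by counting intervals and 10 to 14 when a pair was left out. The 2 genes opposite in the glands became 9 and 5 with 0.1 and 0.5 added to FPKM, 8 with no filter on reads, 1 with at least 200 reads, 36 at 1.2-fold, 0 at 2-fold, 127 by counting intervals and 4 to 43 when a pair was left out. The cause was not tested. Leaving out a pair gave 12 to 13 mitochondrial genes higher, 13 to 22 interferon genes higher and 5 to 13 chaperones lower in the pairs that remained, an alternative chosen after the data were seen. Counts by direction cannot fall when a pair is left out, so these are no test of stability. The 46 genes named by their signs in the pairs kept their sign in every alternative run. Leaving out a pair could not change it, since they were picked for those signs. With DESeq2, 18 of the 46 passed the threshold. Low counts limit CCDC172 and the pituitary values of SLC18A1.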

Other observations

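Clock genes held members of both directions. BHLHE40, TEF and PER3 were higher (6.22% of all genes tested) and ARNTL and CLOCK lower (6.53%) in all 4 stressed libraries, of 16 tested, with 0 limma calls and 4 at the unadjusted threshold. BHLHE40 had 20.8 against 12.6 and 29.8 against 17.7 FPKM in the Beagle and CFD pituitary pairs, and 22.7 against 20.2 and 18.4 against 14.3 FPKM in the adrenal cortex pairs. ARNTL, the partner of CLOCK, had 21.9 against 51.5 FPKM in the Beagle adrenal cortex and ratios between -0.14 and -0.06 in the other pairs. Over the pairs without the CFD pituitary 5 were higher and 5 lower (16.7% and 15% of all genes tested). Without the Beagle pituitary pair 6 were higher and 2 lower (10.4% and 10.7%). The hour of sampling was not given in the sources used here.

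ALB, serum albumin of the liver, had 27.6 against 0.790 FPKM in the Beagle adrenal cortex and 9.09 against 0.121 in the CFD adrenal cortex, and at most 0.569 FPKM in any pituitary. It did not pass the filter on low values and was not tested. Markers of liver cells, 11 in number, summed to 705 against 605 FPKM in the Beagle adrenal cortex, 612 against 476 in the CFD adrenal cortex, and 449 against 335 and 466 against 300 FPKM in the pituitary pairs. These sums do not mean that the members moved together. Only 2 of the 11 were tested, of which 1 was higher in all 4 stressed libraries (6.22% of all genes tested). The other was lower in both stressed pituitaries (27.1%). APOA2 and FGB had 0 reads in all 4 pituitaries. The part of liver cells in these values was not tested.

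Without the CFD pituitary pair, NR4A2, SIK1 and TKTL1 were among the genes lower by 1.5-fold or more in the other 3 pairs, with CFD pituitary ratios of 0.86, 0.19 and 0.82.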
